A study of Homo sapiens with 6 samples.

Results

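The 7 Krüppel-like factor (KLF) genes KLF2, KLF4, KLF5, KLF6, KLF9, KLF10 and KLF11 were examined for SMAD2 binding. A summit, the base at which the signal of a SMAD2 peak is highest, was assigned to a KLF gene when it lay within 50 kb of 1 fixed transcription start site of that gene on hg19. Neighbouring summits from any library, no more than 250 bp apart, were merged into 1 site, which gave 24 KLF sites out of 36648 sites in the whole series. The method was ChIP-seq, in which DNA bound by SMAD2 is pulled down with an antibody and sequenced, and the cells were Hs578T, a long-established line from a human triple-negative breast cancer. All cells received the ligand activin A at 50 ng/ml for 1.5 h. In 1 group (activin, 2 libraries) this was the sole agent, and in the other (palbociclib, 2 libraries) the cells also had 1 µM palbociclib, an inhibitor of the kinases CDK4 and CDK6, for 24 h. No ChIP library without activin was analysed here, and nothing states that replicates were separate cultures, so their spread may be technical. Since 1 cell line was used, nothing here extends to other breast cancer cells.

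KLF proteins are transcription factors with C-terminal zinc fingers that bind GC-rich and CACCC-containing DNA. KLF2, KLF4, KLF5 and KLF6 belong to a subgroup that recruits acetyltransferases, whereas KLF9, KLF10 and KLF11 carry a motif that recruits the SIN3A corepressor. SMAD2 is phosphorylated by activated activin and TGF-β receptors, enters the nucleus with SMAD4 and binds regulatory DNA with partner factors. KLF10 and KLF11 were first described as genes induced early by TGF-β, which acts through the same SMAD proteins as activin.

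Promoter sequences are shown for the gene with the best-ranked SMAD2 site (KLF5, which has more than 1 listed start), for the gene whose site in all 4 libraries lay just upstream of its start (KLF6) and for the gene without a summit in the window (KLF2). They are the 250 bases before the start listed by RefSeq on GRCh38.p14, on the gene's strand, and capitals mark GC boxes, GGGCGG or its reverse complement CCGCCC:
KLF5, first listed start, chr13:73054726-73054975, plus strand: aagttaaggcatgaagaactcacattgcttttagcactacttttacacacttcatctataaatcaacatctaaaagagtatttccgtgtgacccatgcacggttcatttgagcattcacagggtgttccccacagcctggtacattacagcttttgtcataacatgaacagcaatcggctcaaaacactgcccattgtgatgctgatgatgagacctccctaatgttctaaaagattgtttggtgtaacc
KLF5, second listed start, chr13:73058755-73059004, plus strand: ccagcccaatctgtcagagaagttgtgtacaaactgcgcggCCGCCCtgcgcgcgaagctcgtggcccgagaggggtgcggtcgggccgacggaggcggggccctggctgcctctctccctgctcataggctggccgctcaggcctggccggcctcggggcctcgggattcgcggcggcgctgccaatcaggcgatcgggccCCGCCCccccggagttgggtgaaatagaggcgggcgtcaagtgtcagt
KLF6, chr10:3785210-3785459, minus strand: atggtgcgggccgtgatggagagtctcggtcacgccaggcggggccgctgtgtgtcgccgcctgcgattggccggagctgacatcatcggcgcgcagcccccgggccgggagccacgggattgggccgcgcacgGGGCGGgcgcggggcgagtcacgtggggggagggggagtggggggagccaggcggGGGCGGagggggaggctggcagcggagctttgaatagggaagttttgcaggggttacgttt
KLF2, chr19:16324576-16324825, plus strand: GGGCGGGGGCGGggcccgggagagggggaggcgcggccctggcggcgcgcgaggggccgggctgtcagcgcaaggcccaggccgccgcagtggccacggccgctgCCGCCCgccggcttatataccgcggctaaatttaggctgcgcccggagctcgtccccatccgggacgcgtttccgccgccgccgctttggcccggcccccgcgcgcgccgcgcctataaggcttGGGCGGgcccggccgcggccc

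The RefSeq table matched 6 of the 7 genes, with 8 listed starts; KLF10 had no entry. The sequences differed most in base composition. The first KLF5 sequence was 40.8% G+C and held no GC box, and the second, whose start lies 4029 bp downstream of the first, was 70.8% G+C and held 2. The KLF6 sequence was 72.4% G+C with 2 GC boxes, and the KLF2 sequence was 80.0% G+C with 4. KLF4 (69.2%, 4 GC boxes) and KLF11 (78.8% with 2 and 74.4% with 6, the most of the 8) were also GC-rich. The sequence before the listed KLF9 start was 32.4% G+C with no GC box, and 2.92% of the 35116 promoters of this length were lower still. A GC box occurred in 42.6% of these promoters. The SMAD-binding motif CAGAC, or GTCTG on the other strand, occurred in 38.0% of them but in 1 of the 8 KLF sequences, that of the first listed KLF11 start, which held 2 copies. The longer CAGACA or TGTCTG (13.6% of promoters) and the AP-1 motif TGACTCA or TGAGTCA (4.2%) were in none of the 8. The GC-rich SMAD motif GGCGC or GCGCC was in 44.5% of promoters and was found 5 times in KLF2, 3 times in KLF4, 2 times each in KLF6 and the first KLF11 sequence, and once in the second KLF5 sequence. The KLF box CACCC or GGGTG, present in 54.7%, was found once in the first KLF5 sequence and 2 times in the second, and once in the second KLF11 sequence. CAGACA contains CAGAC, so these counts overlap. A match of letters is a description and no evidence of binding.

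SMAD2 sites at the KLF genes lay close to the start sites. Of the 24 sites, 10 lay within 1 kb of the start, another 10 between 1 and 5 kb and 4 between 5 and 10 kb. None lay between 10 and 50 kb, although the first 10 kb make up 20% of the window. Distances were not counted around other gene starts, so whether this closeness is particular to KLF genes was not tested. In the map of sites by distance, 3 sites line up in all 4 libraries, and the sole KLF5 site, which is 1 of them, lies about 4 kb downstream. The lists held no KLF2 site, 1 at KLF4, 1 at KLF5, 6 at KLF6, 8 at KLF9, 5 at KLF10 and 3 at KLF11. Over the genome, 29.7% of 100-kb tiles held at least 1 site, 13.8% at least 3, 7.19% at least 5 and 3.97% at least 8. For the windows of the same length around the KLF starts, the numbers were 6 of 7, 4 of 7, 3 of 7 and 1 of 7. Tiles are not centred on genes, so they describe the genome and not other gene starts. By the RefSeq gene table of GRCh38.p14, a divergent noncoding transcript neighbours KLF2 (KLF2-DT), KLF9 (KLF9-DT) and KLF11 (KLF11-DT), and summits near a shared start cannot be assigned to either gene. Protein-coding neighbours within the window were EPS15L1 at KLF2, PIBF1 at KLF5, and GRHL1 and CYS1 at KLF11.

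**Figure D1:**
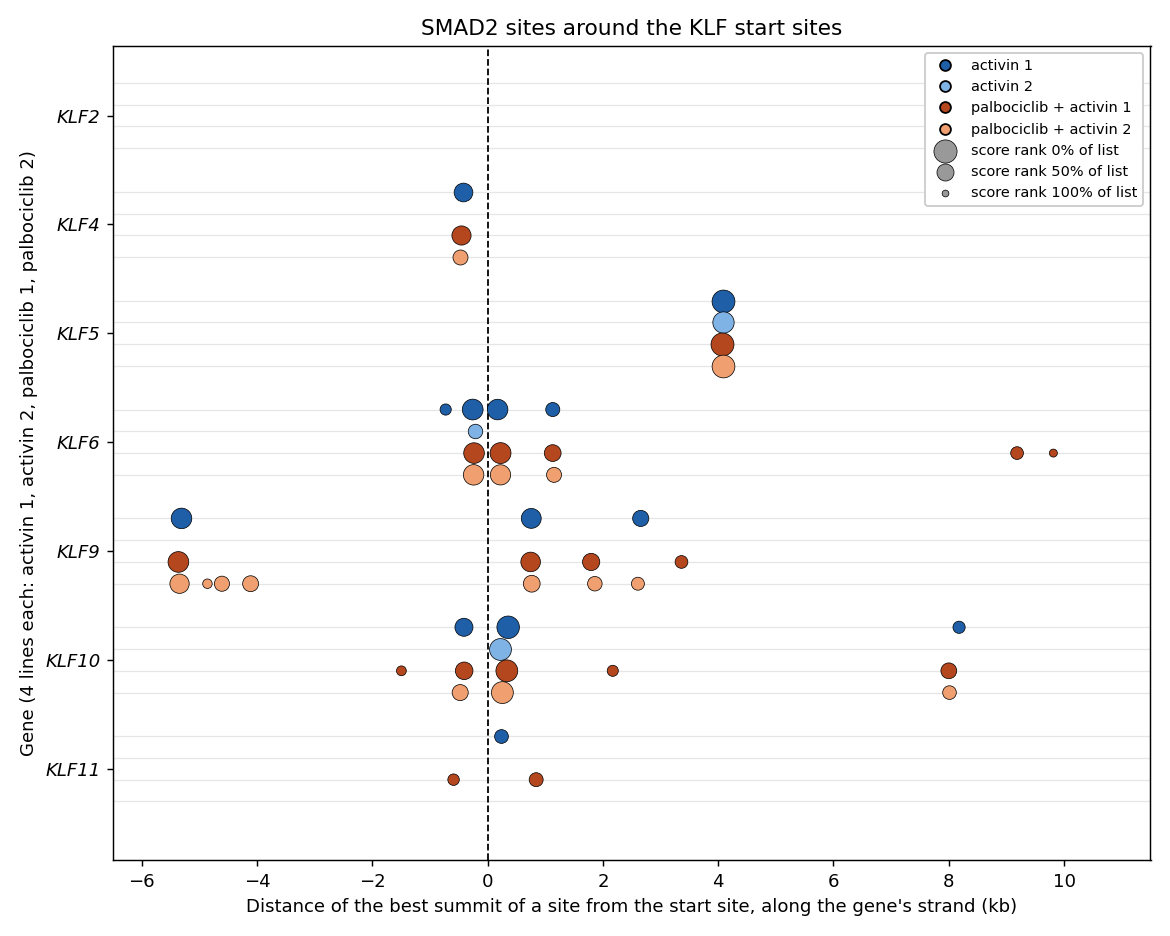
Position of SMAD2 sites around the 7 KLF start sites, with distance along the gene's strand in kb on the x axis (negative upstream) and 4 lines per gene on the y axis, 1 per library. Each circle is the best summit of a site, and a larger circle is a better score rank within its list; KLF2 has no circle, KLF5 has 1 column of large circles near 4.08 kb, and KLF9 has no circle on the line of activin replicate 2.

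Sites differed in how many libraries held them. A summit in all 4 libraries was found at 3 KLF sites (12.5%, Wilson 95% interval 4.34 to 31.0), 1 each at KLF5, KLF6 and KLF10, beside 15.9% of all sites in the series. Another 7 sites (29.2%, 14.9 to 49.2) were missing in activin replicate 2 alone, beside 22.5% of all sites. These were 1 at KLF4 and 2 each at KLF6, KLF9 and KLF10. A summit in 1 library was found at 12 sites (50.0%, no interval computed), beside 39.7% of all sites. Of these, 7 (29.2% of KLF sites, 14.9 to 49.2) were in palbociclib replicate 1 alone, beside 18.9% of all sites. Another 3 (12.5%, 4.34 to 31.0), all at KLF9, were in palbociclib replicate 2 alone, beside 5.43%. The other 2 (8.33%, 2.32 to 25.8) were in activin replicate 1 alone, beside 13.4%. Where an interval was computed, it held the share of the whole series. The intervals cover counting error only.

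KLF2, which maintains quiescence in endothelium and T cells, had no summit within 50 kb of its start (chromosome 19, position 16435628, hg19) in any of the 4 lists. The nearest summit lay 127.2 and 127.1 kb upstream in activin replicates 1 and 2, and 127.1 and 126.9 kb upstream in palbociclib replicates 1 and 2. All 4 libraries thus had their nearest summit at nearly the same place outside the window. The lists hold peaks above the authors' threshold, so weaker binding at KLF2 is not covered. KLF2 also had the most GC-rich of the 8 promoter sequences (80.0% G+C). The first KLF11 sequence was close to it at 78.8%, and KLF11 did have sites.

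KLF4, a pluripotency factor that also controls epithelial differentiation, had 1 site just upstream of its start at 110252047, on chromosome 9 from 110252468 to 110252532 (hg19). Its summit lay at -421 bp in activin replicate 1, at -454 bp in palbociclib replicate 1 and at -485 bp in palbociclib replicate 2. Activin replicate 2 had none there, and its nearest summit on the chromosome was 1444 kb away. The peak was of middling strength where it was found. By score it ranked at 37.6% of the list in activin replicate 1, at 34.2% in palbociclib replicate 1 and at 63.4% in palbociclib replicate 2, where 0% is the strongest. The 2 palbociclib libraries thus lay farther apart than activin replicate 1 and palbociclib replicate 1.

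KLF5, a factor of proliferating basal epithelial and intestinal cells, carried the best-ranked KLF site in 3 of the 4 libraries. It was 1 site on chromosome 13 from 73633187 to 73633197 (hg19), with all 4 summits inside 10 bp, at +4073 to +4083 bp of the start at 73629114. Over the 5829 sites common to all libraries the median span of the summits was 46 bp. The KLF5 summit ranked 645 of 25553 in activin replicate 1 and 1181 of 7241 in activin replicate 2. It ranked 487 of 27290 in palbociclib replicate 1 and 634 of 19226 in palbociclib replicate 2. It was therefore among the best 3.3% of the 3 longer lists and at 16.3% of the shortest. No other summit lay within 50 kb of the start in any library. On GRCh38.p14 the GC-rich KLF5 sequence printed above precedes a start 4029 bp downstream of the other listed one. Whether the site lies at that second start was not tested, because positions were not converted between builds.

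KLF6, which is mutated or alternatively spliced in several cancers and was described as an activator of TGF-β pathway genes, had summits on both sides of its start at 3827473. The upstream site, on chromosome 10 from 3827691 to 3827732 (hg19), was in all 4 libraries. Its summits lay at -259 and -218 bp in activin replicates 1 and 2, and at -236 and -243 bp in palbociclib replicates 1 and 2. Its score ranked at 21.2% and 66.2% of the activin lists and at 22.5% and 23.7% of the palbociclib lists. Activin replicate 2 had a score of 6.59, beside 51.32, 68.81 and 42.72 in activin replicate 1 and the 2 palbociclib libraries. Scores are on a −log10 scale and grow with depth, and the list of activin replicate 2 was the shortest. Ranked over the 5829 common sites, the site lay at 73.0% in activin replicate 2, inside the range of 67.6% to 82.7% of the other libraries. The downstream site, from 3827249 to 3827300, had summits at +173 bp in activin replicate 1 and at +224 and +223 bp in palbociclib replicates 1 and 2. Activin replicate 2 had none there. A weaker site at +1129 to +1152 bp was in the same 3 libraries. The remaining 3 sites were each in 1 library: -728 bp in activin replicate 1, and +9185 and +9815 bp in palbociclib replicate 1.

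KLF9, which is induced by glucocorticoid and thyroid hormones, had the most sites of the 7 genes but none common to all libraries. Activin replicate 2 had no summit within 50 kb, and its nearest lay 155.6 kb away. Of the 8 sites, 4 lay upstream and 4 downstream of the start at 73029573. The strongest were the site on chromosome 9 from 73034884 to 73034938 (hg19), at -5365 to -5311 bp, and that from 73028808 to 73028827, at +746 to +765 bp. The first ranked at 23.1% of the list in activin replicate 1 and at 21.9% and 33.2% in palbociclib replicates 1 and 2. The second ranked at 28.7%, 31.0% and 51.7% in the same order. By share of the list, both were thus in the stronger part of the 2 replicate 1 lists, and lower in palbociclib replicate 2, whose list was shorter. Ranked over the sites common to these libraries, the first lay at 39.5%, 40.6% and 42.5%, and the second at 48.7%, 57.0% and 64.0%. Another site, at +1796 to +1860 bp, was found after palbociclib in both replicates but in no activin library. It was the sole such KLF site, 1 of 24, beside 3.56% of all sites. Its scores were 15.87 and 8.64, and activin replicate 1 had KLF9 summits on both sides of it, at +757 and +2656 bp. The reverse pattern, present in both activin replicates and absent after palbociclib, was seen at no KLF site and at 0.344% of all sites. A site at +2607 to +2656 bp was in activin replicate 1 (score 10.49) and palbociclib replicate 2 (6.47), and one at +3363 bp was in palbociclib replicate 1 alone (5.62). Palbociclib replicate 2 alone had 3 sites between -4861 and -4112 bp, whose scores of 3.56 to 11.68 were in the weaker part of its list. With joining within 500 bp they merge with the site at -5365 to -5311 bp. The number of KLF9 sites thus depends on the joining distance.

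KLF10, also named TIEG1, a repressor induced early by TGF-β, had its main site just downstream of the start at 103668130, on chromosome 8 from 103667774 to 103667914 (hg19). The summit lay at +356 and +216 bp in activin replicates 1 and 2, and at +333 and +256 bp in palbociclib replicates 1 and 2. This span of 140 bp is reached or passed by 14.6% of the common sites, so the 4 summits were more spread than at KLF5. The summit ranked at 5.98% and 12.0% of the lists of activin replicates 1 and 2, and at 12.1% and 11.7% of those of palbociclib replicates 1 and 2. By share of the list, activin replicate 2 was thus level with the palbociclib libraries and activin replicate 1 ranked it higher. The lists differ in length, and over the 5829 common sites the order was another. There the site lay at 25.3% and 14.2% in activin replicates 1 and 2, and at 52.0% and 36.6% in palbociclib replicates 1 and 2. It was the best-ranked KLF site of activin replicate 2. A second site lay upstream, with summits at -411 bp in activin replicate 1 and at -407 and -476 bp in palbociclib replicates 1 and 2. A weak site at +8001 to +8179 bp was in the same 3 libraries, and 2 more sites, at +2171 and -1496 bp, were in palbociclib replicate 1 alone.

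KLF11, also named TIEG2, the closest relative of KLF10 among these genes, had 3 sites near its start (chromosome 2, position 10183682, hg19), each in 1 library. Activin replicate 1 had a summit at +228 bp, and palbociclib replicate 1 had summits at -591 and +842 bp. They ranked at 70.5%, 82.4% and 69.4% of their lists, in the weaker part. Activin replicate 2 and palbociclib replicate 2 had none within 50 kb, and their nearest lay 76.9 kb away. KLF10 and KLF11 thus differed in these lists: the first had a site in all 4 libraries near the start, and the second had no site shared by 2 libraries.

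The numbers of summits were then set side by side for the 2 treatments. Activin replicates 1 and 2 held 13 and 3 KLF summits, and palbociclib replicates 1 and 2 held 18 and 15. The means were 8.0 ± 7.07 and 16.5 ± 2.12 (SD, n = 2 each). Both palbociclib libraries were thus higher than both activin libraries, but the activin replicates differed by 4.33 times, more than the groups, whose geometric means differed by 2.63 times (log2 ratio 1.40). Without activin replicate 2 the log2 ratio was 0.34, and without activin replicate 1 it was 2.45. The lists also differed in length, with 25553 and 7241 summits for activin and 27290 and 19226 for palbociclib. As a share of each list the KLF summits made up 0.0509% (Wilson 95% interval 0.0297 to 0.0870) and 0.0414% (0.0141 to 0.122) in the activin libraries. They made up 0.0660% (0.0417 to 0.104) and 0.0780% (0.0473 to 0.129) in the palbociclib libraries. The log2 ratio of these shares was 0.64, and all 4 intervals overlapped. Both palbociclib shares lay above both activin shares. The intervals cover counting error only, and their overlap is no test of the treatments. No test was run on this sum, so a difference between the treatments is not established. By gene, KLF9 went from 3 and 0 summits to 4 and 7, and KLF10 from 3 and 1 to 5 and 3. KLF6 had 4 and 1 beside 5 and 3, and KLF4, KLF5 and KLF11 had at most 2 in any library.

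**Figure D2:**
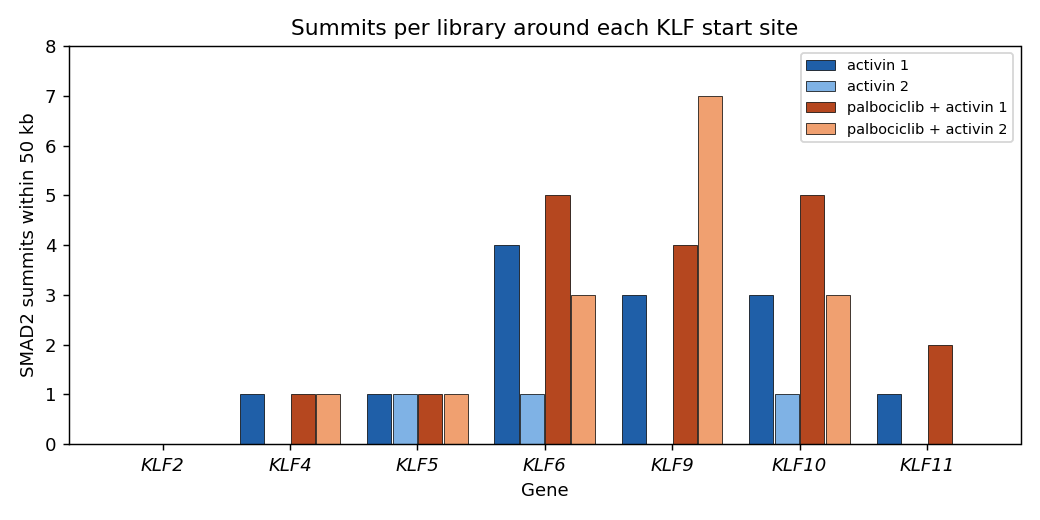
Number of SMAD2 summits within 50 kb of each KLF start site (y axis) for the 7 genes (x axis), with 1 bar per library. KLF6, KLF9 and KLF10 hold most summits, KLF2 holds none, and the bars of activin replicate 2 reach at most 1.

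Since activin replicate 2 had the shortest list, its missing KLF sites were set beside sites of like strength. For each of the 13 KLF sites of activin replicate 1, the 1000 sites nearest to it in rank in that library were taken, and the share with a summit in activin replicate 2 was counted. At the KLF5 and KLF10 sites in all 4 libraries, 98.5% and 96.4% of like sites had one. At the upstream KLF6 site the share was 60.0%, and this site was found in activin replicate 2. At the downstream KLF6 site and the KLF9 site at -5365 to -5311 bp, both missing there, it was 51.1%. It was 27.3% at the KLF9 site at +746 to +765 bp, 9.9% at KLF4 and at most 6.0% at the other KLF sites. The 10 sites of activin replicate 1 not found in activin replicate 2 thus lay in the range of ranks in which activin replicate 2 held about 1 in 2 sites or fewer.

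**Figure D3:**
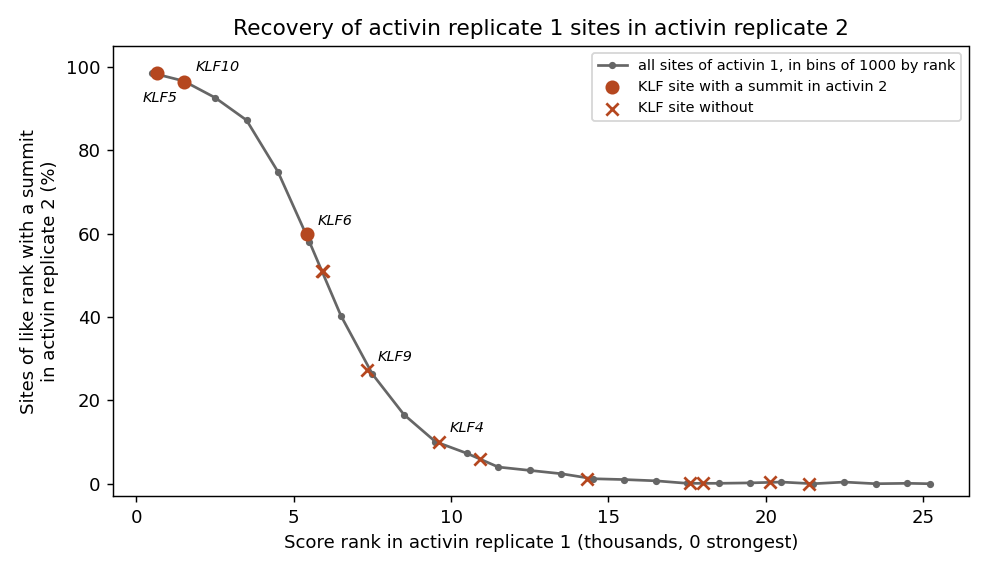
Share of activin replicate 1 sites with a summit in activin replicate 2 (y axis, in percent) by score rank in activin replicate 1 (x axis, in units of 1000), for all sites in bins of 1000 (grey line) and for the 1000 sites nearest in rank to each KLF site (circles: found in activin replicate 2; crosses: not found). The 3 circles lie between 60.0% and 98.5% and the crosses at 51.1% or below; 2 crosses, at KLF6 and KLF9, overlap at 51.1%.

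To compare strength between treatments, scores were ranked over the same 5829 common sites in each library and given as percentiles, where 0 is the strongest. The KLF10 site had percentiles of 25.3 and 14.2 in activin replicates 1 and 2, and of 52.0 and 36.6 in palbociclib replicates 1 and 2. Both palbociclib libraries thus ranked it lower than both activin libraries, from 19.8 ± 7.81 to 44.3 ± 10.9 (SD, n = 2 each), a difference of 24.5 points. Among all common sites 28.2% had both activin libraries above both palbociclib libraries, and 7.0% had a difference at least this large in that direction. The exact permutation test over the 4 libraries gave p = 0.333 (two-sided), which is the smallest p that 2 against 2 libraries can give. With activin replicate 1 alone against the palbociclib mean, over the same 5829 sites, the difference was 19.0 points. Without activin replicate 2 and ranked over the 14053 sites of the other 3 libraries, it was 8.54 points. With a score of at least 20 in every library, which left 846 common sites, the direction turned, with a difference of -0.24 points. The score of the KLF10 site in activin replicate 2 was 20.11, so by construction this threshold placed it close to the lowest scores kept there. The KLF5 site had percentiles of 10.8 and 19.2 after activin and of 8.23 and 10.6 after palbociclib. Both palbociclib libraries thus ranked it higher, as at 26.2% of all common sites, by -5.59 points between the means of 15.0 ± 5.96 and 9.42 ± 1.69. The exact permutation test gave p = 0.333 again. With activin replicate 1 alone against the palbociclib mean, over the same 5829 sites, the difference was -1.37, and over the 14053 sites it was -0.59. The KLF6 site had percentiles of 78.5 and 73.0 beside 82.7 and 67.6, and the groups overlapped (exact permutation p = 1.0). The 3 sites thus did not move together. The 2 libraries of each treatment shared 1 input for peak calling, so treatment and input cannot be told apart.

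**Figure D4:**
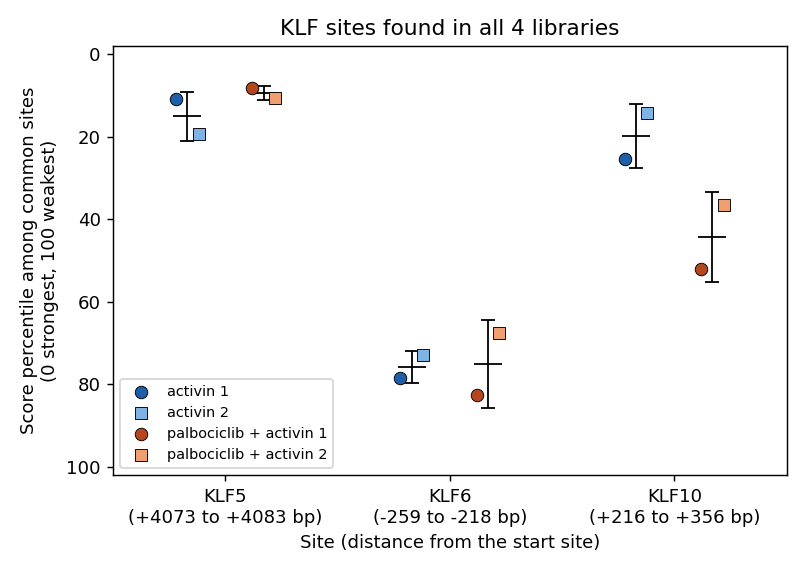
Score percentile among the 5829 common sites (y axis, 0 strongest at the top) of the 3 KLF sites found in all 4 libraries (x axis, with their distance from the start). Points are single libraries, and bars show the mean and SD of 2 libraries per treatment. The groups are apart at KLF10 (19.8 and 44.3) and overlap at KLF6. With a score of at least 20 the KLF10 difference turns to -0.24 points, but its score in activin replicate 2 is 20.11, close to that threshold.

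Over the 3 libraries other than activin replicate 2, 14075 sites were common when sites were joined over all 4 lists. The 14053 sites above came from joining anew without activin replicate 2. Of the 14075 sites, 10 were KLF sites and could be compared, with 1 activin library and no test. They were the 7 sites missing in activin replicate 2 alone and the 3 sites in all 4 libraries. Of these 10, 4 ranked higher in both palbociclib libraries than in activin replicate 1, beside 36.9% of all such sites. Another 4 ranked lower in both, beside 38.1%, and 2 lay between. Of the latter, the upstream KLF6 site had a percentile of 36.4 in activin replicate 1 beside 41.7 and 30.8 in palbociclib replicates 1 and 2. The KLF10 site at -476 to -407 bp had 69.37 beside 80.6 and 69.33. At KLF10, sites of the same gene differed in opposite directions, and the main site had a percentile of 10.6 in activin replicate 1 and of 22.8 and 15.5 in the palbociclib libraries. The site at +8001 to +8179 bp had 94.9 beside 91.6 and 83.6. At KLF6 the downstream site had 39.7 beside 37.5 and 33.2, and the site at +1129 to +1152 bp had 91.2 beside 87.0 and 76.6, so both ranked higher in the palbociclib libraries. At KLF9 the site at +746 to +765 bp had 48.7 beside 57.0 and 64.0 and ranked lower in both. The KLF9 site at -5365 to -5311 bp had 39.5 beside 40.6 and 42.5, so the 3 values lay close together. The KLF4 site had 62.4 beside 62.7 and 76.6, so the palbociclib libraries differed by more than palbociclib replicate 1 and activin replicate 1. The KLF shares in each direction were near those of all sites.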

How the data were processed

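SMAD2 ChIP-seq peak lists of 4 Hs578T libraries were used, and the 2 inputs were not used here. The submitters' processing notes name MACS2 2.0.9 (a peak caller), Bowtie 1.1.0 (an aligner) and Picard, on hg19, with settings not given in the sources used here. Per the labels, peak calling used the input of the same treatment. The deposited score of each summit is on a −log10 scale, read as −log10 of a q-value because the lowest scores, 1.31 to 1.4, lie just above −log10 of 0.05. Scores were used for ranks within a list. Reads per library are not given, so depth is unknown.

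Start sites were fixed positions on hg19. The members, lists and motifs were chosen with earlier results of these data known. Genes, sites and motifs are named by a written rule: all 7 genes, and at each the best-ranked and nearest sites, those within 5 kb and those of 1 treatment. The largest rank changes are also named. No hg19 annotation was used, so other genes were not located and exons or introns are not given; strands came from the RefSeq table (GRCh38.p14), and the minus strand of KLF10 from general knowledge. Site functions were tested on simulated lists. Alternatives covered the window, score threshold, list length, joining distance and leaving out each library. Software was pandas 2.3.3, numpy 2.4.6, matplotlib 3.10.9 and scipy 1.17.1, run in Python 3.11.15.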

Additional observations from a re-analysis of the deposited data

How the results depend on the processing

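The log2 ratio of KLF summit numbers stayed above 0 under every alternative run. It was between 0.34 and 2.45 with 1 library left out, and 0.81 with a window of 100 kb. With lists of equal length it was 0.37, from 5 and 3 activin summits beside 5 and 5 palbociclib summits. With a score of at least 20 it was 1.16, from 7 and 1 beside 7 and 5. In both settings activin replicate 1 was not below either palbociclib library, so the positive ratio came from activin replicate 2. As a share of each list the log2 ratio was 0.64, an alternative chosen after seeing the data. So was the comparison of activin replicate 1 alone over unchanged common sites, in which the mean rank change was 4.74 points. The count of KLF sites in all 4 libraries was 3 of 24 in the main setting, with 5829 common sites in the series. It was 5 of 38 with a window of 100 kb. With a score of at least 20 it was 1 of 7, and the series had 846 common sites. With 1 library left out it was 3 to 10. Without activin replicate 2 it was 10 of 24, and the series had 14053 common sites. Palbociclib-only KLF sites numbered 2 with a score of at least 5 or joining within 100 bp, 0 with a score of at least 20 or equal lists, and 1 to 8 with 1 library left out. Activin-only sites numbered 0 to 2 with 1 library left out. Fewer lists ease these calls by construction. Under changed lists or joining, the share over all sites was not computed, so these counts show no difference between KLF and other sites. The mean rank change over the 3 common KLF sites was 6.10 points, from 24.5 at KLF10, -5.59 at KLF5 and -0.61 at KLF6. Its sign thus came from KLF10. The median was -0.61, beside 0.57 over all common sites. The mean turned to -0.24 with a score of at least 20, where KLF10 was the sole site left among 846 common sites. The KLF10 change thus turned to -0.24 as well. The KLF10 score was 20.11 in activin replicate 2, beside 102.59 in activin replicate 1 and 116.67 and 66.91 in the palbociclib libraries. This threshold thus placed the site, by construction, close to the lowest scores kept in activin replicate 2. How far this accounts for the turn was not tested. Same-numbered libraries share a number and no stated source; over the common sites their deviations correlated at r = 0.264. With the replicate number as a block, the mean log2 ratio of summit numbers was 1.40 ± 1.31 and the mean rank change 6.10 ± 4.70 (SD, n = 2 pairs). Depth is unknown, and the short list of activin replicate 2 limits every count of shared sites.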

Other observations

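Outside the 50-kb window, between 50 and 100 kb from the start sites, 14 further sites were found, all of them at KLF11. One lay upstream, at -91786 to -91761 bp, and the others between +76906 and +97483 bp. Of the 14, 2 were in all 4 libraries. The stronger of these, on chromosome 2 from 10262857 to 10262886 (hg19), ranked at 0.446% and 1.12% of the activin lists and at 0.370% and 0.588% of the palbociclib lists, so it ranked better in each list than any site within 50 kb of a KLF start. The other, from 10260588 to 10260630, ranked at 6.15% and 16.8% of the activin lists and at 7.26% and 6.71% of the palbociclib lists. In the RefSeq table of GRCh38.p14 the next protein-coding genes after KLF11 are CYS1 and then RRM2, which encodes a subunit of ribonucleotide reductase, the enzyme that makes deoxynucleotides. Which gene holds these sites was not analysed here.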
